A study of Homo sapiens with 6 samples.

Results

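The 10 chaperonin genes were the 8 subunit genes of the cytosolic chaperonin CCT (TCP1, CCT2, CCT3, CCT4, CCT5, CCT6A, CCT7 and CCT8) and the mitochondrial pair HSPD1 and HSPE1. They were chosen by gene symbol and made up 10 of the 50868 genes listed. Expression was measured by sequencing total RNA from Huh7, an established human hepatoma cell line, 48 h after transfection of a plasmid with the lipid reagent Lipofectamine 2000. The overexpression group (3 libraries) received a plasmid that overexpresses hsa_circ_0098181, a circular RNA made from exons of SOX5, and the control group (3 libraries) received the control plasmid. Both groups were the same cell line, transfected and sequenced in bulk, and the share of cells that took up a plasmid is not given. The labels do not say whether the 3 libraries of a group came from separate cultures. P-values therefore measure only the spread between these libraries, which may be technical.

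Chaperonins are barrel-shaped machines that enclose an unfolded protein and use ATP to let it fold away from the crowded cell interior. CCT, also called TRiC, sits in the cytosol as a double ring. Every position within a ring is held by a different subunit, and CCT is known for folding actin and tubulin as well as several cell cycle regulators. The mitochondrial machine is built from many copies of HSPD1 (HSP60) closed by a lid of HSPE1 (HSP10), and folds proteins imported into the matrix, which are abundant in liver cells.

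The question put to these genes was whether their transcripts differed in level after overexpression of the circular RNA. None of the 10 genes passed an adjusted p of 0.05 in the edgeR quasi-likelihood test. This compares with 4 genes higher (0.0266%) and 2 lower (0.0133%) among the 15055 genes tested. No chaperonin gene had an unadjusted p under 0.05, against 5.5% of all genes tested, and the smallest unadjusted p was 0.096 for CCT8. The groups overlapped for 8 of the 10 genes. CCT8 was the 1 gene higher in all overexpression libraries than in any control library (6.4% of all genes tested), and HSPD1 the 1 gene lower in all of them (6.5% of all genes tested). The median log2 fold change was 0.042 over the 10 genes and 0.0023 over all genes tested, with 7 positive and 3 negative values among the 10. Over the 10 genes the 95% intervals of the fold change ran from 0.793 to 1.34, so every interval lay within a 2-fold change in either direction.

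**Figure D1:**
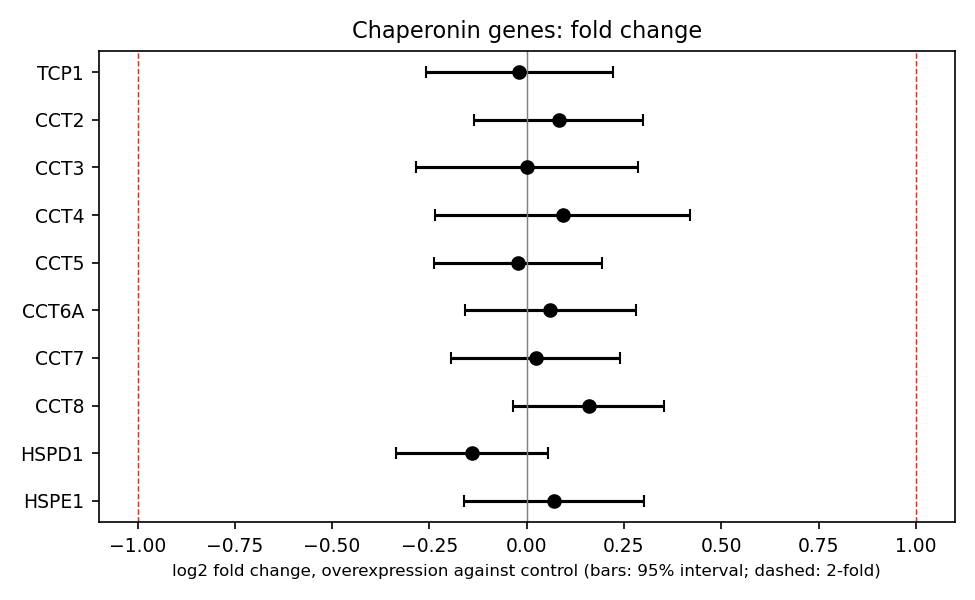
The log2 fold change (overexpression against control, horizontal axis) of each chaperonin gene, with bars for the 95% interval of the edgeR fit over 3 libraries per group and dashed lines at a 2-fold change. All 10 bars cross 0, and the points run from -0.14 for HSPD1 to 0.16 for CCT8.

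Total gene counts ran from 11130902 to 14138262 per library, and each chaperonin gene had between 1600 and 21477 counts in a library, so counting error is small for all 10. Levels are given in CPM, the gene's count relative to the library total after TMM scaling (trimmed mean of M values, an adjustment for library composition). SOX5, the host gene of the circular RNA, had 1905 to 2396 CPM in the overexpression libraries and 31.3 to 41.8 CPM in the control libraries (log2 fold change 5.88, edgeR adjusted p 2.6e-06), which matched the labels. These gene counts do not separate the circular RNA or plasmid transcripts from linear SOX5 RNA. AFP, a fetal liver protein made by many hepatomas, had 10801 to 13276 CPM. Among markers of other cells, the summed levels were 14.0 to 18.6 CPM for 4 fibroblast genes and 7.92 to 13.8 CPM for 3 leukocyte genes. The 3 endothelial genes summed to 46.9 to 59.1 CPM, nearly all from PECAM1, with CDH5 at 0 in all libraries. Control replicate 1 stood apart in its mitochondrially encoded transcripts, at 9.29% of counts against 6.32% to 7.04% in the other 5 libraries. The chaperonin values without it are given after those of the CCT genes.

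Starts of the chaperonin genes were read from RefSeq (GRCh38.p14), which had windows of 250 bases before the start for 9 of the 10 genes and no entry for CCT6A. The sequences are shown because HSPD1 and HSPE1 lie head to head, and because heat shock elements, repeats of an inverted GAA unit bound by the heat shock factor HSF1, are a known feature of chaperone genes. Motifs were searched on both strands. A core of the form GAANNTTC was present in 5.78% of 35116 windows and TTCNNGAA in 6.62%. Either core was present in 11.6% of windows, and both sharing a GAA or TTC unit in 0.441%. The E-box CACGTG, which several growth-related factors bind, was present in 6.34%. Within these windows, cores were found for 3 genes (HSPD1, TCP1 and CCT2), with both cores sharing a unit for HSPD1 alone. The E-box was found for HSPD1 and HSPE1. HSPD1 and CCT2 had 2 windows each, with cores in only 1 of them. Counted by gene, either core was present for 3813 of 27305 genes, both sharing a unit for 152 and the E-box for 2110. In the sequences below, 5′ to 3′ on the strand of the gene, capitals mark the motif.
HSPD1, heat shock cores, chr2:197500061-197500090 (minus strand), 245 bases before the start at 197499840: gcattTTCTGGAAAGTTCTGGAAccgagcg
HSPE1, E-box, chr2:197500345-197500374 (plus strand), 22 bases before the start at 197500379: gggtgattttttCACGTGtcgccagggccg
HSPD1, the same E-box, chr2:197500345-197500374 (minus strand), 88 bases before the start at 197500274: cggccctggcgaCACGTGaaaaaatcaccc
TCP1, heat shock core, chr6:159789815-159789844 (minus strand), 231 bases before the start at 159789602: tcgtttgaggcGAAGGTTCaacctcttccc
CCT2, heat shock core, chr12:69585789-69585818 (plus strand), 89 bases before the start at 69585889: cccggagcgaaGAAATTTCtagtgtgggac
The starts of HSPD1 at 197500274 and of HSPE1 are 105 bases apart and point away from each other, so the E-box between them counts for both genes. The heat shock stretch is also upstream of the HSPE1 start, but beyond its window of 250 bases, so it counts for HSPD1 alone. It lies downstream of the HSPD1 start at 197500274 and counts through the start at 197499840. In GENCODE 29 both stretches on chromosome 2 overlap the 5′ UTR of a longer HSPE1 transcript. The heat shock stretch also lies in the 5′ UTR of 1 HSPD1 transcript and in an intron of others, and the E-box in an intron of the longest HSPD1 transcript. The TCP1 stretch lies upstream of TCP1, in an exon of the neighbouring MRPL18, and the CCT2 stretch lies in the 5′ UTR of 1 CCT2 transcript and in an intron of others. These matches describe letters only, and no binding was measured here.

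Levels were compared between genes as CPM per kilobase of merged exons, over all 6 libraries. HSPD1 was the highest at 349 ± 24.5 (SD, n = 6), and its lowest library (315) exceeded every library of every other chaperonin gene. Among the CCT subunits CCT6A was highest at 145 ± 10.2 CPM per kilobase and TCP1 lowest at 42.6 ± 3.50. Between them came CCT3 at 132 ± 14.1, CCT4 at 109 ± 14.4, CCT7 at 106 ± 6.95, CCT8 at 104 ± 7.80, CCT2 at 90.1 ± 6.35 and CCT5 at 71.6 ± 4.68 CPM per kilobase. The subunits, which take up equal places in the assembled ring, thus had values that spanned 42.6 to 145 CPM per kilobase. HSPE1, at 86.4 ± 6.64, lay between CCT2 and CCT5. The ranges of neighbours in this order overlapped, except that HSPD1 was above CCT6A and CCT5 above TCP1 in non-overlapping ranges. Within libraries the order was firmer for some pairs than for others, since CCT6A was above CCT3 in 6 of 6 libraries but CCT7 was above CCT8 in 3 of 6. The deposited FPKM values gave the same order except that CCT3 and CCT4 changed places, and they rest on gene lengths 1.47 to 2.16 times the merged exon length. Merged exons cover all annotated transcripts of a gene, from 2.83 kilobases for CCT4 to 5.84 for CCT5 among the subunits. Which transcripts were expressed was not tested, and the order depends in part on this length. Before division by length, CCT6A (566 CPM) and TCP1 (210 CPM) were also the highest and lowest subunits. CCT5 (418 CPM) was then above CCT4 (309 CPM).

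**Figure D2:**
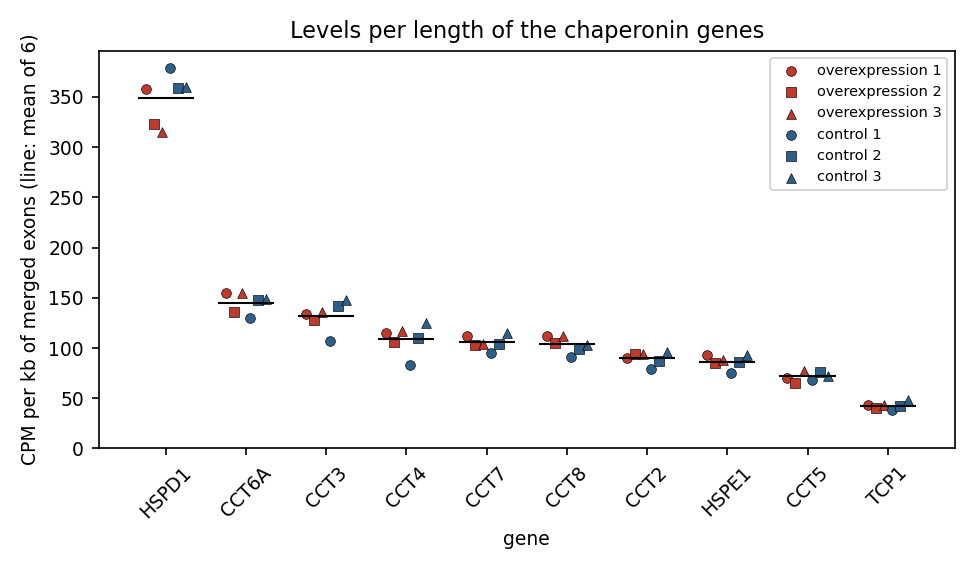
CPM per kilobase of merged exons (vertical axis, from 0) for each chaperonin gene in descending order, 1 symbol per library and a line at the mean of 6 libraries. HSPD1 at a mean of 349 stands above the CCT genes and HSPE1, which run from 145 down to 42.6.

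CCT8, the theta subunit, showed the CCT subunits' largest difference between groups. Its gene (ENSG00000156261) lies at chr21:29055805-29073797 on the minus strand. Overexpression replicates 1, 2 and 3, the order kept for all values here, had 373, 350.2 and 374 CPM of CCT8, against 305, 332 and 345 CPM in the controls. All overexpression libraries were above all control libraries, with means of 366 ± 13.4 and 328 ± 20.6 CPM (SD, n = 3). This gave a log2 fold change of 0.16 (SE 0.085, 95% interval -0.035 to 0.35; edgeR adjusted p 0.797), so the difference did not pass the test. As a share of all CCT counts, CCT8 held 11.5%, 11.5% and 11.3% in the overexpression libraries and 11.1%, 10.4% and 10.3% in the control libraries. Of the 8 shares it was the only one whose groups did not overlap. The share rests on the same CCT8 counts as the CPM values and was not tested. In CPM, 6.4% of all genes tested were higher in non-overlapping groups.

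The subunits TCP1 (alpha) and CCT2 (beta) overlapped between groups. TCP1 (ENSG00000120438, chr6:159778498-159789749, minus strand) had 213, 199.8 and 214 CPM in the overexpression libraries and 187, 208 and 239 in the control libraries. The control libraries of TCP1 lay on both sides of the overexpression libraries, and its log2 fold change was -0.019 (SE 0.10, edgeR adjusted p 0.977). CCT2 (ENSG00000166226, chr12:69585334-69601570, plus strand), known also as a disease gene of the retina, had 389.6, 406 and 405 CPM in the overexpression libraries and 341, 377 and 417 in the control libraries. Here 1 control library was above all overexpression libraries and the other 2 were below them, with a log2 fold change of 0.082 (SE 0.094, edgeR adjusted p 0.862).

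CCT3 (gamma) and CCT4 (delta) varied most between libraries. CCT3 (ENSG00000163468, chr1:156308968-156367873, minus strand) had 537, 514 and 545 CPM in the overexpression libraries and 430.0, 571 and 593 in the control libraries. Its group means were nearly equal at 532 ± 16.1 and 531 ± 88.4 CPM (SD, n = 3), with control replicate 1 the lowest of the 6 libraries and the other 2 control libraries the highest. CCT3 had a fitted log2 fold change of 0.00082 (SE 0.12, 95% interval -0.28 to 0.29). CCT4 (ENSG00000115484, chr2:61868089-61888804, minus strand) had 325, 299.6 and 332 CPM in the overexpression libraries and 234, 311 and 352 in the control libraries. Control replicate 1 was again far below the rest, and the log2 fold change of 0.092 (SE 0.14, edgeR adjusted p 0.899) became -0.054 without it. Its interval, -0.24 to 0.42, was the widest of the 10 genes.

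CCT5, CCT6A and CCT7 also overlapped between groups. CCT5 (epsilon, ENSG00000150753, chr5:10249921-10266412, plus strand), a subunit in which mutations cause a sensory neuropathy, had 410.0, 383 and 453 CPM in the overexpression libraries and 397, 447 and 420.3 in the control libraries. It was the only CCT subunit not lowest in control replicate 1, and its log2 fold change was -0.021 (SE 0.094, edgeR adjusted p 0.969). CCT6A (zeta, ENSG00000146731, chr7:56051630-56063989, plus strand) had 604, 529 and 602 CPM in the overexpression libraries and 507, 576 and 580.0 in the control libraries. The largest share of CCT counts, a mean of 18.0%, came from CCT6A, and its log2 fold change was 0.061 (SE 0.096, edgeR adjusted p 0.901). CCT7 (eta, ENSG00000135624, chr2:73233420-73253021, plus strand) had 401, 371 and 375 CPM in the overexpression libraries and 343, 372 and 414 in the control libraries. Its control values ran from below to above all 3 overexpression values, and the log2 fold change was 0.023 (SE 0.095, edgeR adjusted p 0.967).

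Taken as 1 complex, the 8 CCT genes summed to 3252, 3052 and 3299 CPM in the overexpression libraries and to 2745, 3194 and 3360 CPM in the control libraries. The group means, 3201 ± 131 and 3099.6 ± 318 CPM (SD, n = 3), differed by less than the spread within the control group. Together the 8 genes took 0.309% to 0.333% of all counts in the overexpression libraries and 0.267% to 0.334% in the control libraries. In bulk RNA, fewer cells that express a gene and less RNA per cell cannot be told apart.

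Control replicate 1 held the lowest value of 8 of the 10 genes, namely all except CCT5 and HSPD1, while 26.5% of all genes tested were lowest there. Averaged over the 8 CCT genes, the log2 deviation from each gene's mean was 0.049, -0.039 and 0.069 in the overexpression libraries and -0.20, 0.015 and 0.10 in the control libraries. The largest distance from 0 was thus in a control library and not between the groups. The same library had the high share of mitochondrially encoded transcripts (9.29%) and the highest level of APOB, a liver lipoprotein gene. APOB had 6595, 8846 and 9234 CPM in the overexpression libraries and 12939, 10252 and 9127 CPM in the control libraries. Other hepatocyte markers did not share this, since ALB (4365 CPM), APOA1 (224 CPM) and GPC3 (520.3 CPM) were lowest in control replicate 1. The rest of the hepatocyte markers were neither highest nor lowest there. The part of these features in the low CCT values was not tested. Without control replicate 1 the median log2 fold change of the 10 genes was -0.046 in place of 0.042, and none of the 10 was called. Without it, CCT8 stood at 0.11, CCT2 at 0.015 and CCT6A at 0.0021 on the log2 scale. HSPE1 stood at -0.0084, CCT7 at -0.038, CCT4 at -0.054, CCT5 at -0.060, TCP1 at -0.097, HSPD1 at -0.11 and CCT3 at -0.13. The values of CCT3, CCT4, CCT7 and HSPE1 thus changed sign.

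**Figure D3:**
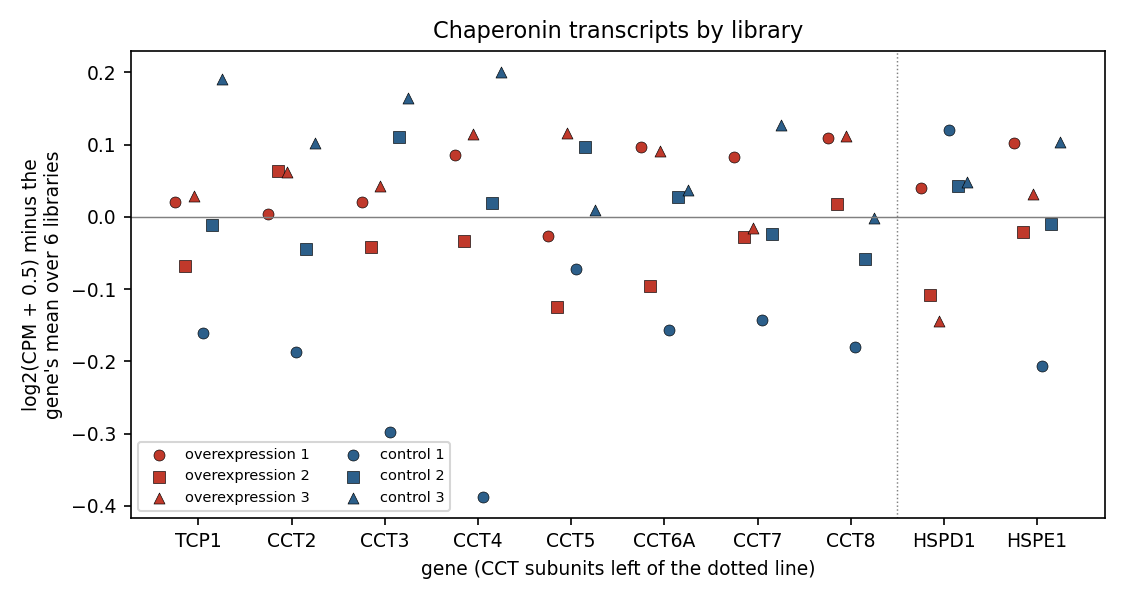
Log2(CPM + 0.5) of each chaperonin gene minus that gene's mean over the 6 libraries (vertical axis), 1 symbol per library, with the CCT subunits left of the dotted line. Control replicate 1 (blue circles) is lowest for 7 of the 8 CCT genes and for HSPE1, and highest for HSPD1.

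HSPD1, the folding chamber of mitochondria, was the most abundant of the 10 genes and lower after overexpression without passing the test. Its gene (ENSG00000144381) lies at chr2:197486581-197516737 on the minus strand. It had 1520.4, 1373 and 1339 CPM in the overexpression libraries and 1608, 1524 and 1529 CPM in the control libraries. Every overexpression library was below every control library, although overexpression replicate 1 (1520.4) lay next to the lowest control (1524). The means were 1411 ± 96.6 and 1554 ± 47.3 CPM (SD, n = 3), with a log2 fold change of -0.14 (SE 0.085, 95% interval -0.33 to 0.056; edgeR adjusted p 0.797).

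HSPE1, its lid, overlapped between groups. The gene (ENSG00000115541) lies at chr2:197499994-197503457 on the plus strand and had 183.0, 168 and 174 CPM in the overexpression libraries against 148, 169 and 183.3 CPM in the control libraries. Control replicate 1 was the lowest and control replicate 3 the highest of the 6, and the log2 fold change was 0.070 (SE 0.10, edgeR adjusted p 0.888).

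The ratio of HSPD1 to HSPE1 counts within a library does not depend on scaling between libraries. It was 8.31, 8.17 and 7.69 in the overexpression libraries and 10.9, 9.001 and 8.34 in the control libraries. All overexpression ratios were below all control ratios, with overexpression replicate 1 (8.31) next to control replicate 3 (8.34). The difference of the mean log2 ratios was -0.22, a change of -13.9%. The exact two-sided permutation test gave p = 0.1, which is the smallest that this test can give with 20 arrangements of 3 against 3 libraries. The difference was -0.11 without control replicate 1, which had the highest ratio. HSPE1 varied little against the CCT genes. Its counts per summed CCT count were 0.0563, 0.0550 and 0.0528 in the overexpression libraries and 0.0538, 0.0530 and 0.0545 in the control libraries. HSPD1 counts per summed CCT count varied more, at 0.467, 0.450 and 0.406 in the overexpression libraries and 0.586, 0.477 and 0.455 in the control libraries, and the groups overlapped.

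**Figure D4:**
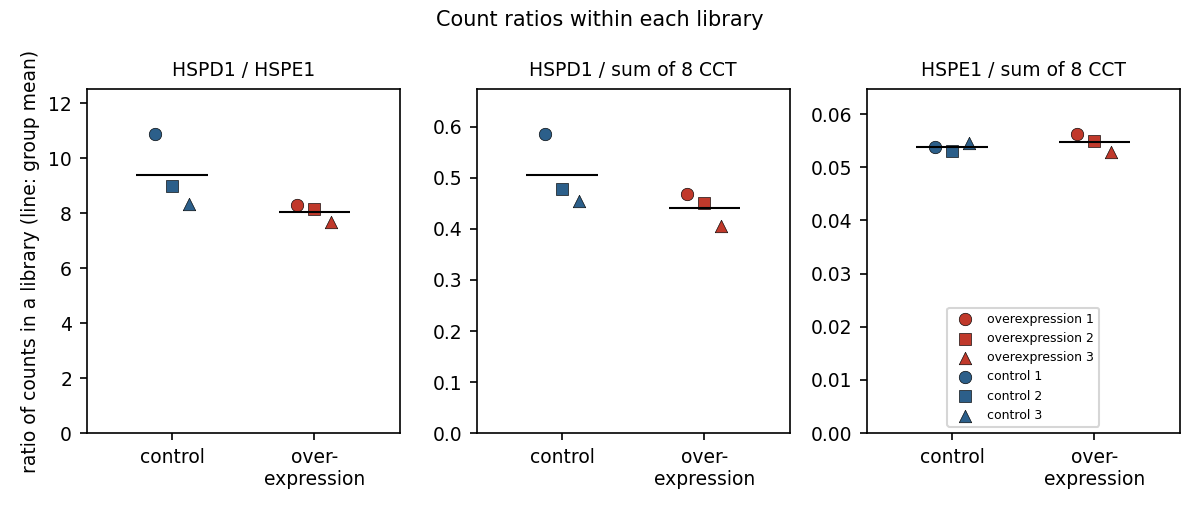
Ratios of counts within each library (vertical axes, from 0), 1 symbol per library, with a line at the group mean. The HSPD1 to HSPE1 ratio is 7.69 to 8.31 after overexpression and 8.34 to 10.9 in control, while HSPE1 per CCT count stays between 0.0528 and 0.0563.

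Chaperonin genes have many processed pseudogenes and some overlapping neighbours, and how reads matching several genes were counted is not known. Stretches of 31 bases also present, on either strand, in another gene's transcripts made up 31.3% of HSPD1, 33.3% of CCT5, 27.2% of HSPE1 and 20.4% of TCP1. In the other 6 genes they made up 3.63% to 15.3%. These include overlap with opposite-strand neighbours at the same place, the largest part for CCT5 (AC012640.4, 28.9%), HSPE1 (HSPD1, 12.2%) and TCP1 (ACAT2, 7.12%). For HSPD1 the largest part was the pseudogene HSPD1P1 (16.7%). Of the 15 HSPD1 pseudogenes listed, 8 had counts, and together they held 3.25% of the counts of HSPD1 and its copies. HSPD1P1 held most of that, with 641, 542 and 488 counts in the overexpression libraries and 504, 499 and 509 in the control libraries. CCT6P1 held 1.19% of the counts of CCT6A and its pseudogenes, and CCT8P1 held 1.61% of those of CCT8. The read-through gene HSPE1-MOB4 had 73, 74 and 89 counts in the overexpression libraries and 62, 73 and 53 in the control libraries. Adding these counts to their parent genes left the median log2 fold change at 0.042 and the log2 ratio difference at -0.22. On the opposite strand, exons of AC012640.4 overlap 30.1% of the CCT5 exon bases, and exons of HSPD1 overlap 14.2% of those of HSPE1. Such overlap also covers 12.6% of the CCT4 exon bases (AC107081.2 and COMMD1), 8.05% of those of TCP1 (ACAT2) and 6.62% of those of HSPD1 (HSPE1). Without a known strand setting, reads there cannot be assigned to 1 gene.

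The proteins that work with the chaperonins were described through 7 lists of 67 genes, of which 64 were tested. None of the 64 was called, and 4 (6.25%) had an unadjusted p under 0.05, close to the 5.5% of all genes tested. Of the 64, 7 (10.9%) were higher and 3 (4.69%) lower in non-overlapping groups, against 6.4% and 6.5% of all genes tested.

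Prefoldin hands unfolded actin and tubulin chains to CCT, and the phosducin-like proteins are co-chaperones that bind the CCT ring. Among 9 prefoldin and prefoldin-like genes the median log2 fold change was 0.21, with 7 positive and 2 negative values. PFDN5, a prefoldin subunit, had 85.4, 88.7 and 87.6 CPM in the overexpression libraries and 63.0, 80.8 and 82.3 CPM in the control libraries. Its groups did not overlap, and its log2 fold change was 0.21 (edgeR adjusted p 0.797). URI1, a prefoldin-like gene, overlapped between groups with a log2 fold change of -0.023. The prefoldin median was 0.13 without control replicate 1 and 0.12 without overexpression replicate 1. Of 4 phosducin-like genes 3 were tested, with a median log2 fold change of 0.18. PDCL had 43.5, 39.2 and 45.2 CPM in the overexpression libraries and 33.5, 32.3 and 37.4 CPM in the control libraries. The groups did not overlap, and PDCL had a log2 fold change of 0.31 (edgeR unadjusted p 0.020, adjusted p 0.797). TXNDC9 likewise did not overlap, at a log2 fold change of 0.18 (edgeR adjusted p 0.797).

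Among the genes of proteins that CCT folds, 24 of 25 were tested. Of these, 10 log2 fold changes were positive and 14 negative, with a median of -0.011. That median ran from -0.019 to 0.026 when 1 library was left out, and was positive without control replicate 1 or 3 or overexpression replicate 3. The most abundant were TUBA1B, an alpha-tubulin, with a log2 fold change of 0.055 (edgeR adjusted p 0.927), and ACTB, cytoplasmic actin, with -0.057 (edgeR adjusted p 0.945). CCNE1, a cyclin named after its values were seen, was the only client with an unadjusted p under 0.05, at a log2 fold change of 0.35 (edgeR adjusted p 0.797). The 6 tubulin cofactors, which assemble the tubulin dimer after CCT releases it, had a median of 0.10, with TBCA at 0.20 (edgeR adjusted p 0.797) and TBCE at -0.057. Their median was 0.00072 without control replicate 1, 0.032 without overexpression replicate 1 and 0.16 to 0.17 without any other library.

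In mitochondria, the HSP70 machine pulls in and folds imported proteins beside HSPD1, and proteases remove those that fail. The 11 genes listed for the mitochondrial HSP70 system had a median log2 fold change of -0.081, with 4 positive and 7 negative values. The list also holds TRAP1 (-0.13) and CLPB (-0.10), mitochondrial chaperones that are not parts of the HSP70 machine. Both are among the negative values, so the median rests in part on them. The direction rested on single libraries, since the median was 0.0088 without control replicate 2, 0.0080 without control replicate 3 and between -0.050 and -0.00083 without any other. HSPA9, the matrix HSP70 itself, had 829.9, 789 and 803 CPM in the overexpression libraries and 888, 818 and 856 CPM in the control libraries. The groups overlapped, and the log2 fold change was -0.081 (edgeR adjusted p 0.839). GRPEL1, its nucleotide exchange factor, stood at -0.012. The 7 mitochondrial proteases had a median of 0.057, with YME1L1 at 0.057 and AFG3L2 at 0.054. It was 0.033 without control replicate 1 and 0.036 without overexpression replicate 3.

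The relatives of the CCT subunits comprised 5 genes, of which 4 were tested, with a median log2 fold change of -0.37. The best expressed were MKKS and BBS10, which help to assemble a ciliary complex and are mutated in Bardet-Biedl syndrome, with log2 fold changes of 0.0070 and 0.074. The other 2, named after their values were seen, were CCT6B, a paralog of CCT6A, at -0.82 (1.07 to 1.63 CPM after overexpression and 1.79 to 2.58 CPM in control) and BBS12 at -0.74 (1.13 to 2.14 and 2.30 to 3.32 CPM). Both were low in level, both were lower in non-overlapping groups and both had an edgeR adjusted p of 0.797.

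Across the 6 libraries, the genes most like the mean of the 8 CCT genes in log2(CPM + 0.5) were GALNT2 (Pearson r 0.991), RWDD2B (0.990), CLIC1 (0.990), CDC26 (0.986) and GTSF1 (0.985), among 9943 genes with a mean of at least 10 CPM. CLIC1, for example, had 428, 382 and 424 CPM in the overexpression libraries and 317, 411 and 435 CPM in the control libraries, lowest in control replicate 1 like the CCT genes. The genes most like the mean of HSPD1 and HSPE1 were WDR5 (0.988), KRT8P3 (0.988), SETMAR (0.976), CHEK1 (0.974) and ARRB2 (0.970). In control replicate 1, HSPD1 was at its highest (log2 deviation 0.12) and HSPE1 at its lowest (-0.21). Their mean thus varied less (SD 0.064) than the CCT mean (SD 0.11), and genes like this mean need not be like HSPD1 or HSPE1. An r above 0.9 was reached by 333 genes for the CCT mean and by 45 genes for the mean of HSPD1 and HSPE1. These values describe 6 points that share library depth and composition.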

How the data were processed

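The authors sequenced total RNA of 6 Huh7 libraries and deposited 1 table that holds, for every gene in every library, raw counts and FPKM values. The submitters' processing notes name TopHat2 2.0.9 and hg38. The counting tool, annotation release and strand setting are not given in the sources used here. Coordinates of the 10 genes in the table equalled those of GENCODE 29 (GRCh38). Sample titles gave the groups and the replicate numbers. Library totals were 11130902 to 14138262 counts. They count reads without molecular identifiers, so copies of the same molecule cannot be told apart.

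Counts were tested with edgeR 4.0.16 under R 4.3.3 (TMM, a filterByExpr minimum count of 10, glmQLFit and glmQLFTest, group as the only term, two-sided, Benjamini-Hochberg over 15055 genes). The biological coefficient of variation was 16.1%. Standard errors were derived from the F statistic. The table had no row without a gene ID. Libraries of a group differed beyond sampling noise (chi-square per degree of freedom 10.1 to 20.9). Lengths were merged GENCODE 29 exons. Alternatives used DESeq2 1.42.0, limma 3.58.1 on log2(FPKM + 1), RLE and upper-quartile normalization, other filters, a replicate block, summed pseudogene counts and each library left out. The edgeR, DESeq2 and limma fits were run on simulated data with planted changes larger than any among the 10 chaperonin genes. That check does not measure the power to find changes as small as those seen here.

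The members and lists were chosen with earlier results of these data known. All 10 members are named. From each other list the 2 genes with the highest mean CPM are named, pseudogenes with at least 1% of the counts of a member and its pseudogenes, and the 5 genes most like each mean profile. Marker lists for hepatocytes (8 genes), fibroblasts, leukocytes and endothelial cells were used to check the label. The 8 hepatocyte genes summed to 29402 to 34572 CPM.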

Additional observations from a re-analysis of the deposited data

How the results depend on the processing

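None of the 10 chaperonin genes was called under any of 14 alternatives (smallest adjusted p 0.669), and 125 of 140 gene values kept their direction. CCT2, CCT6A, CCT8 and HSPD1 kept 1 direction throughout, though CCT2 was as low as 0.015 and CCT6A as low as 0.0021, both without control replicate 1. The other 15 changed sign, with the value furthest from 0 being -0.13 for CCT3. TCP1 was 0.011 and CCT5 0.0014 with limma on log2(FPKM + 1), and CCT3 was -0.0014 with RLE normalization and -0.0015 with DESeq2. Leaving out 1 library moved TCP1 from -0.097 to 0.079, CCT3 from -0.13 to 0.087, CCT4 from -0.054 to 0.23, CCT5 from -0.087 to 0.032, CCT7 from -0.038 to 0.097 and HSPE1 from -0.0084 to 0.14. CCT3, CCT4, CCT7 and HSPE1 were negative without control replicate 1. TCP1 turned positive without control replicate 3 or overexpression replicate 2, and CCT5 without control replicate 2 or overexpression replicate 2. CCT3 also turned negative without overexpression replicate 1 or 3, and CCT7 without overexpression replicate 1. The median of the 10 genes ran from -0.046 (without control replicate 1) to 0.096, and the log2 ratio difference of HSPD1 to HSPE1 from -0.30 to -0.11. The deposited FPKM put 2 genes at another rank. Over all genes, DESeq2 called 8 higher and 20 lower in place of 4 and 2. Without 1 library edgeR called 1 to 7 higher and 2 to 9 lower. The cause was not tested, and the leave-out fits also had fewer samples.

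With the replicate block edgeR called 2 genes higher and no chaperonin gene. Same-numbered libraries of the 2 groups correlated at -0.036, -0.023 and -0.031 in their deviations over 15055 genes, and none correlated best with its own number. Over all genes the numbers thus showed no pairing, and a pairing that affects few genes was not tested. Depth was 1600 or more counts per library for every chaperonin gene, and standard errors ran from 0.085 to 0.14 at 3 libraries a group.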

Other observations

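GRPEL2, another exchange factor of the mitochondrial HSP70 and named after its values were seen, had 11.3, 39.9 and 10.5 CPM in the overexpression libraries and 17.2, 40.5 and 12.6 CPM in the control libraries. Replicate 2 was the highest library of both groups.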
